A study of Homo sapiens with 3 samples.

Results

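Of the 7899 sites of SRA, the steroid receptor RNA activator, a long non-coding RNA, that were mapped in NTERA2 cells, 2470 had no listed p68 site on the same chromosome within 50 kb. These SRA sites, called far sites below, were chosen by the gap between the edges of an SRA site and the edges of the nearest p68 site, so that their distance to p68 is a description and not a finding. They made up 31.3% of SRA sites (95% Wilson interval 30.3 to 32.3%, counting error only), and the other 5429 are called remaining sites. Far sites were spread over 22 chromosomes and 1 unplaced contig, and on the 14 chromosomes with at least 100 SRA sites their share ran from 3.28% on chromosome 19 to 66.9% on chromosome 17. They lay farther from other SRA sites than the remaining ones did, while their widths were nearly the same.

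NTERA2 is an established human embryonal carcinoma line used as a model of pluripotent stem cells, and the cells were grown in serum-containing DMEM with no other treatment given in the labels. SRA was mapped by ChIRP-seq, in which biotinylated oligonucleotides complementary to an RNA pull down that RNA with the chromatin around it. The RNA helicase p68 was mapped in the same cell line by ChIP-seq with an antibody. Each assay had 3 biological replicates, which the authors intersected into 1 list of positions on hg19 without scores, and the input sample was not analysed here.

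SRA acts as an RNA coactivator of nuclear receptors and other transcription factors, and p68, a DEAD box helicase encoded by DDX5, is one of the proteins that bind it. Trithorax group (TrxG) complexes, which trimethylate histone H3 lysine 4, and polycomb repressive complex 2 (PRC2), which trimethylates lysine 27, are the chromatin regulators with which the study links SRA. The far sites are those SRA sites with the least p68 around them in the deposited lists. Absence from the p68 list is not absence of p68 from the chromatin. A p68 site that was weak, or missing from a single replicate, would not be listed, and the part of such sites in the results was not tested.

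The reagents that selected every SRA site were 29 probes of 20 nt against SRA. Shown here are the first probe, with a GC content of 50%, and the first listed of those with the lowest (35%) and the highest (70%) GC content, each 5′ to 3′ as designed and without its biotin. No letter is marked, because the probes were not matched to the far sites here.
SRA_1: ggctgatgtcatcacatacc
SRA_23: agtctactttgggaaaaagt
SRA_12: tgttgcctgcggaggcgagg

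The gap of far sites to p68 had a median of 113 kb, with quartiles of 73.7 and 195 kb, and 1088 far sites (44.0%) lay between 50 and 100 kb. A further 798 lay 100 to 200 kb away, 470 lay 200 to 500 kb away and 103 lay 500 kb to 1 Mb away. Only 10 far sites had a gap over 1 Mb, of which 6 were on chromosome 17, 2 on chromosome 1 and 1 each on chromosomes 8 and 11. The remaining sites had a median gap of 9.88 kb. Overlap with p68 was a class of its own, with 708 SRA sites against 209 at 1 to 500 bp. Without the overlapping sites, the distances drawn on a log scale had 1 broad peak, and the limit of 50 kb cut them just beyond it. The shape was not tested. The 2 members nearest to the limit had gaps of 50002 bp (chromosome 1 from 154743575 to 154748045) and 50081 bp (chromosome 3 from 66020872 to 66023409). The 2 sites that just missed it had gaps of 49921 bp (chromosome 9 from 124129052 to 124132099) and 49906 bp (chromosome 1 from 153438026 to 153440017).

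**Figure D1:**
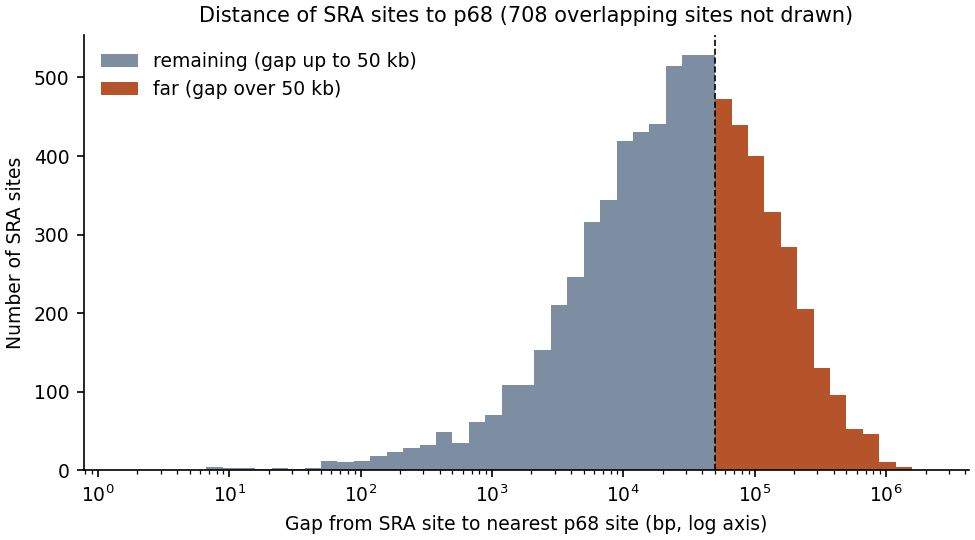
Number of SRA sites (vertical axis) by the gap in bp to the nearest p68 site (horizontal log axis, bins of equal width on the log scale), with far sites in brown, remaining sites in blue-grey and the limit of 50 kb as a dashed line. The 708 SRA sites that overlap a p68 site are not drawn, and the far sites continue the falling side of the drawn distribution out to 1458 kb.

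Far sites were usually enclosed between p68 sites at unequal distances. A p68 site was listed on both sides of 2466 of them, and for 51.7% of those with any p68 on their chromosome (49.7 to 53.7%, n = 2469) the nearer one had the lower coordinate. The p68 site on the farther side had a median gap of 281 kb, with quartiles of 163 and 515 kb. On both sides p68 was within 100 kb for 210 far sites (8.50%) and within 200 kb for 834 (33.8%). There were 3 far sites at the end of a chromosome's p68 sites, with p68 on 1 side only. These lay on chromosome 2 (from 232578 to 234469), chromosome 12 (82763 to 85045) and chromosome 21 (48021435 to 48025857). A single member, on the unplaced contig chr7_gl000195_random from 29796 to 33419, counted as far because no p68 site was listed on that contig, and it has no gap.

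The sites farthest from p68 were concentrated in 1 part of chromosome 17. The largest gap, 1458 kb, belonged to a site of 3128 bp from 53425791 to 53428918. The next 2 were at 53531078 to 53532748 (1354 kb) and 53590862 to 53592322 (1294 kb), and the fifth at 53799852 to 53801767 (1085 kb). All 4 stood in a stretch of 5.69 Mb without p68, from 49198714 to 54886618, which was the longest stretch between neighbouring p68 sites that held any far site and which held 6 far sites in all. The fourth site was alone on chromosome 8, from 59569438 to 59570924, with p68 1257 kb away and the nearest other SRA site 1446 kb away. These 5 sites were from 1461 to 3128 bp wide.

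Sequence more than 50 kb from p68 was much more extensive than the far sites were numerous. It took up 75.2% of the chromosome spans, measured from the first to the last site of either list, and held 2524 SRA midpoints in 2179 Mb. This gave 1.16 SRA midpoints per Mb (95% exact Poisson interval 1.11 to 1.20), while sequence up to 50 kb from p68 had 7.50 per Mb (7.30 to 7.70). The ratio was 6.47 (95% interval 6.17 to 6.79, counting error only). Assembly gaps and sequence where reads cannot be placed were not taken out of the spans. Their part in the densities was not tested. Density fell with each step away from p68 beyond 50 kb, from 3.25 per Mb at 50 to 100 kb to 1.97 at 100 to 200 kb, 0.839 at 200 to 500 kb, 0.293 at 500 kb to 1 Mb and 0.0203 over 1 Mb. Much of the sequence far from p68 lay where SRA sites were rare altogether. In the 121 windows of 10 Mb with at least 10 SRA sites, a choice made after the counts were seen, the densities were 3.29 per Mb over 50 kb from p68 and 11.4 per Mb nearer to it, a ratio of 3.46. In these windows too the density fell at each step, from 5.74 per Mb at 50 to 100 kb to 0.301 over 1 Mb. The density was lower over 50 kb from p68 on each of the 14 chromosomes that held 100 or more SRA sites. The ratio was smallest on chromosome 17, at 1.59, and largest on chromosome 19, at 32.0. On chromosome 19 only 4 SRA sites were far, so that its ratio is imprecise, and no interval was computed for it.

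**Figure D2:**
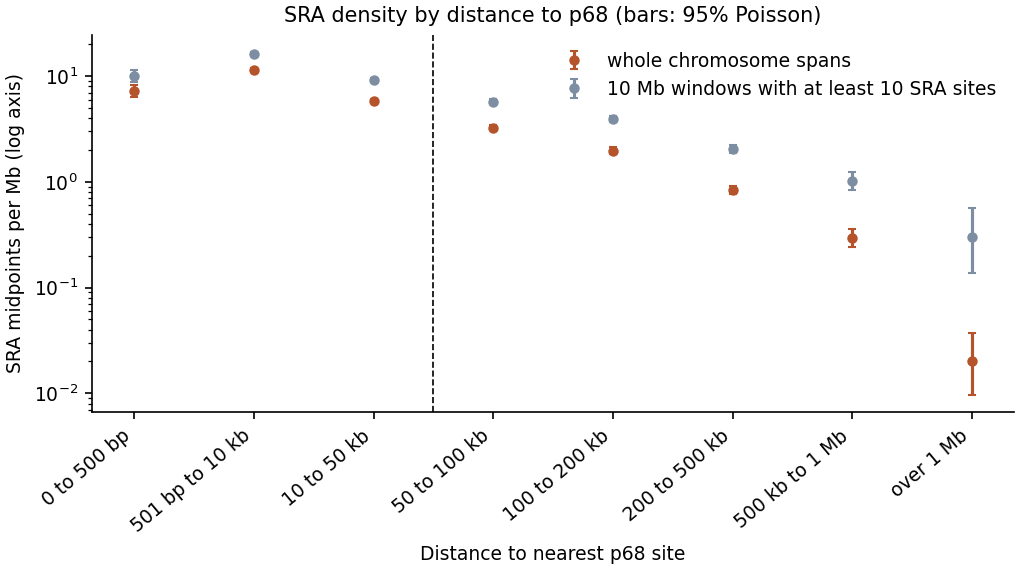
SRA midpoints per Mb (vertical log axis) by distance to the nearest p68 site (horizontal axis, classes), over whole chromosome spans (brown) and in the 10 Mb windows with at least 10 SRA sites (blue-grey), with 95% exact Poisson intervals as bars and the limit of 50 kb as a dashed line. Both series fall from 50 to 100 kb (3.25 and 5.74 per Mb) to over 1 Mb (0.0203 and 0.301 per Mb).

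Nearly all far sites, 2416 (97.8%), were on the 14 chromosomes with at least 100 SRA sites. Chromosome 1 held 548 of them, chromosome 16 held 322, chromosome 2 held 288, chromosome 17 held 247 and chromosome 3 held 245. These 5 chromosomes carried 66.8% of far sites and 61.4% of remaining sites. Chromosome 1 was less prominent among far sites than among the remaining ones (22.2% against 33.9%). The reverse was seen for chromosome 17 (10.0% against 2.25%), chromosome 2 (11.7% against 6.13%) and chromosome 3 (9.92% against 5.75%), while chromosome 16 held about the same share of both (13.0% and 13.3%). The chromosomes outside the 14 had few members, with 19 of 51 SRA sites far on chromosome 13, 13 of 21 on chromosome 10, 11 of 42 on chromosome 4, 4 of 12 on chromosome 5 and 3 of 4 on chromosome 6. Chromosomes 14, 18 and X had 1 each.

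The share of SRA sites that were far fell from chromosome to chromosome with many overlapping intervals below the highest value. On chromosome 17, 66.9% of the 369 SRA sites were far (95% Wilson interval 62.0 to 71.5%), which was above the intervals of the other 13. Chromosome 2 (46.4%), chromosome 8 (46.2%), chromosome 3 (44.0%) and chromosome 15 (42.3%) followed, and their intervals overlapped. Chromosomes 16, 9, 12 and 7 had shares from 28.9 to 30.8%, again with overlapping intervals. Chromosome 11 had 25.7% (22.3 to 29.3%), which overlapped the interval of chromosome 7 (25.1 to 33.1%), and chromosome 1 had 22.9% (21.3 to 24.7%). Chromosome 20 had 19.3% (14.1 to 25.9%), overlapping both, chromosome 21 had 12.1% (8.32 to 17.2%) and chromosome 19 had 3.28% (1.28 to 8.13%), with 4 far sites among 122. Because neighbouring sites are not independent, these intervals are too narrow to serve as a test.

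The shares moved with how densely p68 was listed on a chromosome, which the rule itself uses. Chromosome 19 had 12.5 p68 sites per Mb and chromosome 17 had 2.98. Over the 14 chromosomes Spearman's rho between the share of far sites and p68 density was -0.80 (Pearson's r -0.81), given as a description of values that come from the same p68 list. Chromosome 17 exceeded chromosome 8 in its share of far sites. Both had nearly the same p68 density (2.98 and 2.85 per Mb), and chromosome 8 had slightly more of its span over 50 kb from p68 (79.0% against 76.5%). The median gap from a p68 site to the nearest other p68 site was wider on chromosome 17, at 76.3 kb against 58.4 kb. What sets their shares apart was not tested. Sequence over 50 kb from p68 held 4.02 SRA midpoints per Mb on chromosome 17 and 0.634 on chromosome 8, and sequence nearer to p68 held 6.38 and 2.78 per Mb.

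**Figure D3:**
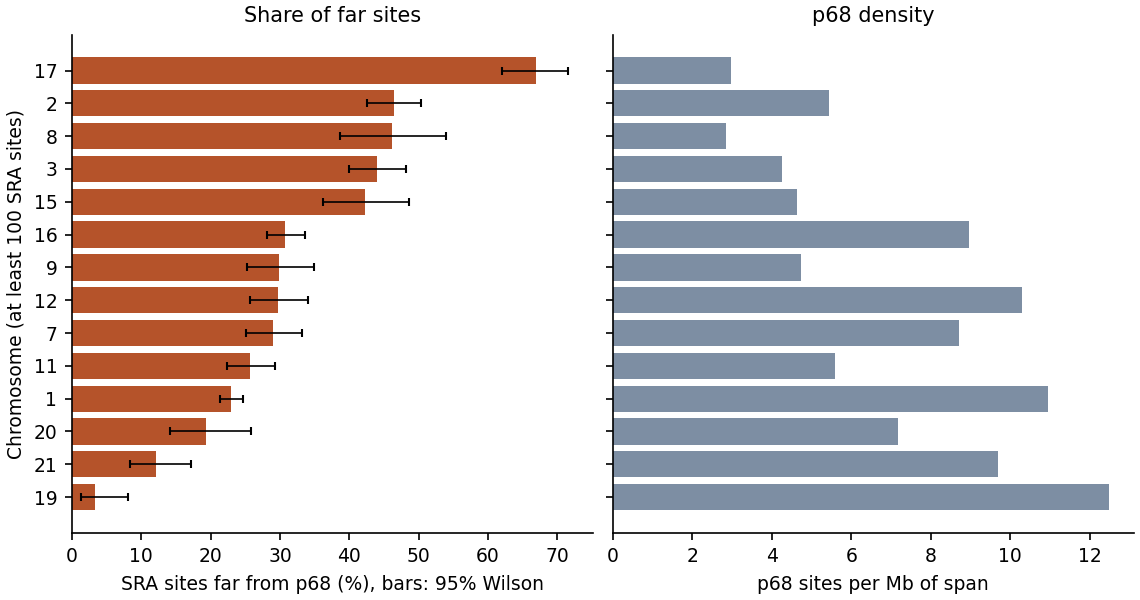
Left, percentage of SRA sites that are far from p68 (horizontal axis from 0) on each chromosome with at least 100 SRA sites, with 95% Wilson intervals as bars. Right, p68 sites per Mb of chromosome span. Chromosome 17 has the highest share (66.9%) with 2.98 p68 sites per Mb, and chromosome 19 the lowest (3.28%) with 12.5.

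On chromosome 17, 238 of the 247 far sites lay beyond 40 Mb. The window from 40 to 50 Mb held 95 SRA sites, of which 76 (80.0%) were far, beside 29 p68 sites. From 50 to 60 Mb, 56 of 87 SRA sites were far beside 15 p68 sites, from 60 to 70 Mb 43 of 61 beside 20, and from 70 to 80 Mb 61 of 112 beside 65. In each of these windows SRA sites outnumbered p68 sites, which was not particular to chromosome 17. Windows with more far sites in absolute number were on chromosome 16. There 95 of 205 SRA sites were far between 70 and 80 Mb, 84 of 230 between 50 and 60 Mb and 83 of 343 between 80 and 90 Mb. These 3 windows held 74, 80 and 116 p68 sites. On chromosome 1 from 40 to 50 Mb p68 sites were the more numerous, with 227 beside 217 SRA sites. Genome-wide, 174 of the 194 windows with SRA sites held at least 1 far site, and 25 windows were enough to hold 50% of them. Every one of the 121 windows with at least 10 SRA sites held far sites and none held far sites alone. In 35 of them far sites were the majority.

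Far sites lay farther from other SRA sites than the remaining sites did. Their median gap to the nearest other SRA site was 21974 bp (quartiles 3714 and 88568 bp, n = 2468), against 8279 bp (1288 and 35025 bp, n = 5429). Another SRA site was within 10 kb for 36.5% of far sites (95% Wilson interval 34.6 to 38.4%) and for 53.4% of remaining sites (52.0 to 54.7%). Within 2 kb the shares were 20.2% and 29.6%, and within 50 kb they were 65.0% and 81.0%. Spacing within the SRA list does not use p68 positions. It was compared in a linear model of log2 spacing, with a term for each chromosome and errors clustered by windows of 1 Mb. Spacing is tied to SRA density, which was lower over 50 kb from p68. The model is therefore not evidence apart from that density. Far sites were 2.16 times as far from the nearest other SRA site as remaining sites of the same chromosome (95% interval 1.81 to 2.57, n = 2468 and 5429 sites, adjusted p = 1.67e-17, two-sided, Benjamini-Hochberg over the 2 models). Measured instead as the gap to another group of sites joined within 10 kb, the difference was 0.60 on the log2 scale, against 1.11 for the gap to the nearest site. The p-values of these models measure the spread between regions of 1 list, since no spread between replicates can be had. Of the 14 chromosomes with at least 100 SRA sites, 13 had a larger median spacing for far sites. Chromosome 15 was the exception, with 18.5 kb against 21.3 kb.

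The contrast in spacing varied between chromosomes. On chromosome 1 the medians were 14.5 kb for far and 3.74 kb for remaining sites, on chromosome 11 they were 28.5 and 8.37 kb, and on chromosome 9 they were 82.0 and 25.7 kb. On chromosome 16, the most crowded, far sites had a median spacing of 5.74 kb, against 3.67 kb. On chromosome 17 the values were close, at 14.2 and 13.7 kb, and on chromosome 8 they were 42.8 and 42.7 kb. Far sites on chromosome 19, only 4 in number, had a median spacing of 314 kb. Spacing also widened with the gap to p68, from a median of 16.9 kb for sites 50 to 100 kb from p68 to 21.5 kb at 100 to 200 kb, 43.2 kb at 200 to 500 kb and 49.2 kb at 500 kb to 1 Mb. The share with another SRA site within 10 kb fell over the same classes from 40.8% to 36.0%, 31.3% and 22.3%, and none of the 10 sites over 1 Mb had one.

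The far site on chromosome 18 and that on the contig were the only SRA sites there and have no spacing value. Among the 2468 far sites with one, the most isolated were on chromosomes that hold few SRA sites. A site of 2493 bp on chromosome 5, from 124314871 to 124317363, had no other SRA site within 43262 kb. Next came a pair on chromosome 4 that were each other's nearest SRA site at 40396 kb, from 113781548 to 113783009 and from 154179247 to 154181745. Their gaps to p68 were 142 kb for the site on chromosome 5 and 199 and 230.4 kb for the pair on chromosome 4, so none was among the sites farthest from p68.

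Width hardly separated far from remaining sites. Far sites had a median width of 2198 bp (quartiles 1620 and 3152 bp, range 931 to 13256 bp) and remaining sites 2243 bp (1642 and 3332 bp, range 908 to 14015 bp). Together the far sites covered 6.49 Mb, which was 30.4% of the sequence covered by SRA sites. Over all sites far ones were thus slightly narrower, but within chromosomes the direction turned. The linear model with a term for each chromosome gave a width 1.03 times that of remaining sites (95% interval 1.00 to 1.05, n = 2468 and 5429 sites, adjusted p = 0.045), and 10 of the 14 chromosomes had a larger median width for far sites. Without the chromosome term the difference was -0.04 on the log2 scale (n = 2468 far sites, p = 0.055). Without chromosome 16, where the median widths were 2278 and 2065 bp, the difference fell from 0.037 to 0.020 (n = 2146 far sites, p = 0.31). With SRA sites within 500 bp joined, an alternative chosen after seeing the data, it was 0.0065 (n = 2308, p = 0.75).

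The widths of far sites differed much more between chromosomes than between far and remaining sites. Their median was 2984 bp on chromosome 1, where remaining sites had 2938 bp, and 2858 bp on chromosome 7, against 2596 bp. It was 1753 bp on chromosome 17, against 1722 bp, and 1734 bp on chromosome 8, against 1839 bp. By gap to p68 the median width was 2203 bp at 50 to 100 kb, 2244 bp at 100 to 200 kb, 2132 bp at 200 to 500 kb and 1991 bp at 500 kb to 1 Mb. Among the remaining sites, those that overlapped p68 stood out with 2612 bp, and those 10 to 50 kb from p68 had 2187 bp. Leaving out the remaining sites with p68 within 500 bp raised the difference within chromosomes to 0.055 on the log2 scale (n = 2465 far sites, p = 0.0034). The edges of a wider site reach nearer to p68. Width therefore has a part in which sites are far, overlap p68 or were left out, and the size of that part was not tested.

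**Figure D4:**
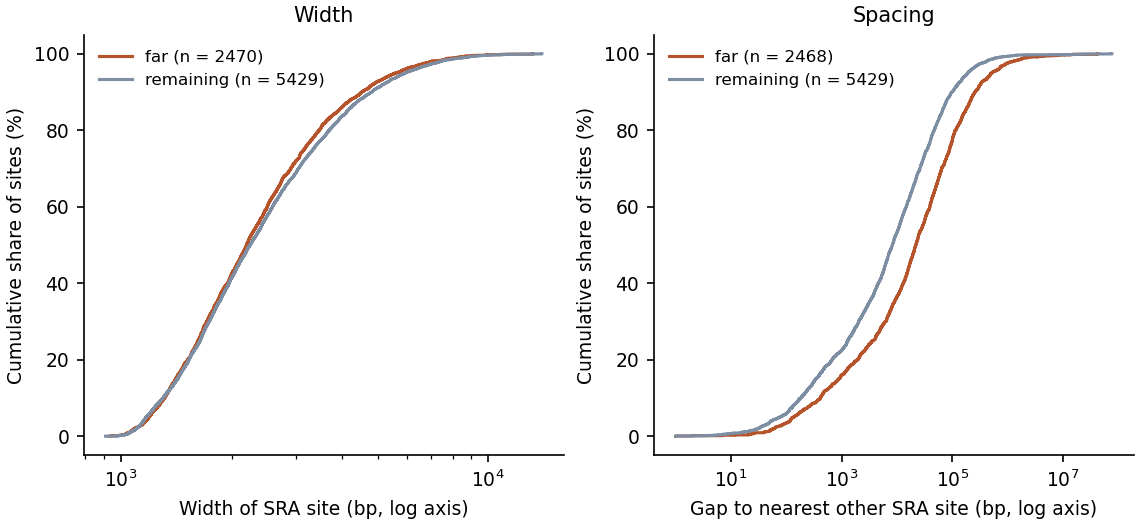
Cumulative percentage of far sites (brown) and remaining sites (blue-grey) by width in bp (left, log axis) and by the gap in bp to the nearest other SRA site (right, log axis). The width curves lie close together with medians of 2198 and 2243 bp, and the spacing curves are apart with medians of 21974 and 8279 bp.

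Wide sites occurred far from p68 as well. There were 178 far sites over 5 kb (7.21%), against 480 remaining sites (8.84%), and 5 far sites over 10 kb. The widest were on chromosome 1 from 232602483 to 232615738 (13256 bp, 83.4 kb from p68) and from 220871142 to 220884280 (13139 bp, 83.2 kb). On chromosome 9 a site of 11365 bp ran from 126620416 to 126631780, and on chromosome 7 one of 10841 bp ran from 25789344 to 25800184. The fifth was on chromosome 1 from 160639906 to 160650641 (10736 bp), 262 kb from p68 and 61 bp from another SRA site.

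Far sites had other far sites as neighbours. For 1927 of 2468 far sites (78.1%) the nearest other SRA site was also far, which was so for 463 of 5429 remaining sites (8.53%). In the order of SRA sites along the chromosomes, far sites formed 744 uninterrupted runs, of which 284 were single sites and 39 had at least 10 sites and held 534 far sites. The longest run, of 30 sites, was on chromosome 17. Over all SRA sites, 31.3% were far. Since neighbours share their p68 surroundings, both the shares of far neighbours and the runs follow from the rule to an extent that was not tested.

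When SRA sites within 10 kb of each other were joined, 1885 of 5453 groups consisted of far sites alone and 62 held both kinds. Of the groups with far sites alone, 1570 (83.3%) were single sites and 13 had at least 5 sites. Of the 3506 groups without any far site, 2532 (72.2%) were single sites and 105 had at least 5. Groups of far sites alone held 1.25 sites on average and groups without any far site 1.51. Neither average includes the 62 mixed groups, which held 243 SRA sites, 115 of them far.

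The largest group of far sites was on chromosome 16 from 75086277 to 75151658, with 12 sites that covered 60.4% of 65.4 kb. Along the chromosome its sites were 1098, 2938, 4966, 5721, 1368, 6377, 2097, 2198, 2615, 1429, 6668 and 2013 bp wide. Their gaps to p68 ran from 52.7 to 116 kb. The next 2 groups had 9 sites each, on chromosome 1 from 226754122 to 226797803 (56.8 to 98.0 kb from p68) and on chromosome 16 from 68414272 to 68465576 (57.7 to 99.0 kb). In the group on chromosome 16 a site of 9901 bp and one of 9100 bp stood 2873 bp apart. The fourth group, 8 sites on chromosome 11 from 45386342 to 45435241, was the most remote, with gaps from 184 to 229 kb and sites from 2015 to 7659 bp wide. The fifth had 7 sites on chromosome 2 from 175626356 to 175662781, 78.3 to 112 kb from p68.

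Within such groups sites were often separated by very short gaps. Neighbours stood 7 bp apart in the group of 9 on chromosome 16 and 41 and 51 bp apart in that on chromosome 1. Another SRA site lay within 100 bp of 87 far sites (3.53%) and of 323 remaining sites (5.95%). Whether such neighbours are parts of 1 enriched region was not tested. With sites within 500 bp joined, far sites still had the wider spacing, by 0.96 on the log2 scale (n = 2308, p = 2.3e-24).

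Seen from the p68 list, far sites were present in a minority of the stretches longer than 100 kb. Neighbouring p68 sites enclosed 4457 such stretches, with those on chromosomes without SRA sites included. A shorter stretch cannot hold a far site. Since the narrowest far site was 931 bp wide, stretches barely over 100 kb cannot hold one either. Far sites were found in 1007 of the 4457 stretches (22.6%), and 2883 held no SRA site at all. Occupied stretches held 1 far site in 534 cases, and 121 stretches with at least 5 far sites held 997 of them (40.4%). Of stretches of 100 to 200 kb 12.8% held a far site, of those of 200 to 500 kb 30.4%, of those of 500 kb to 1 Mb 27.8% and of those over 1 Mb 23.5%. Longer stretches offer more room, but beyond 500 kb the share of stretches with a far site did not rise further. Among chromosomes, 41.5% of the long stretches on chromosome 1 held far sites, 39.5% on chromosome 17, 35.1% on chromosome 3 and 34.5% on chromosome 16, but 15.2% on chromosome 7 and 3.88% on chromosome 19. Chromosomes 4, 5, 6, 10, 14, 18 and X were from 0.952% to 6.83%. The long stretches on these chromosomes had median lengths from 324 to 648 kb. The median was 227 kb on chromosome 1, 309 kb on chromosome 17, 186 kb on chromosome 16 and 234 kb on chromosome 19. The shares by length above thus mix length with chromosome, and the 2 were not separated.

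The 5 stretches with the most far sites held 110 of them (4.45%). Chromosome 17 had the first and second, with 30 far sites in 2334 kb from 44271283 to 46604900 and 23 far sites in 940 kb from 47439963 to 48379677. The second was far from p68 for all 23 of its SRA sites. On chromosome 1, 20 far sites lay in 449.5 kb from 48119217 to 48568717, and on chromosome 11, 20 lay in 467 kb from 45202833 to 45669582. On chromosome 16, 17 far sites lay in 251 kb from 75033573 to 75284955, a stretch that also contains the group of 12 described above. Per Mb of the whole stretch, far sites numbered from 12.9 in the first to 67.6 on chromosome 16. These values include the 50 kb at each end, where the rule allows no far site, and average over empty parts. The first stretch had no far site in its first 538 kb. Far sites of the first stretch formed 21 groups, whereas the 17 on chromosome 16 formed 4.

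**Figure D5:**
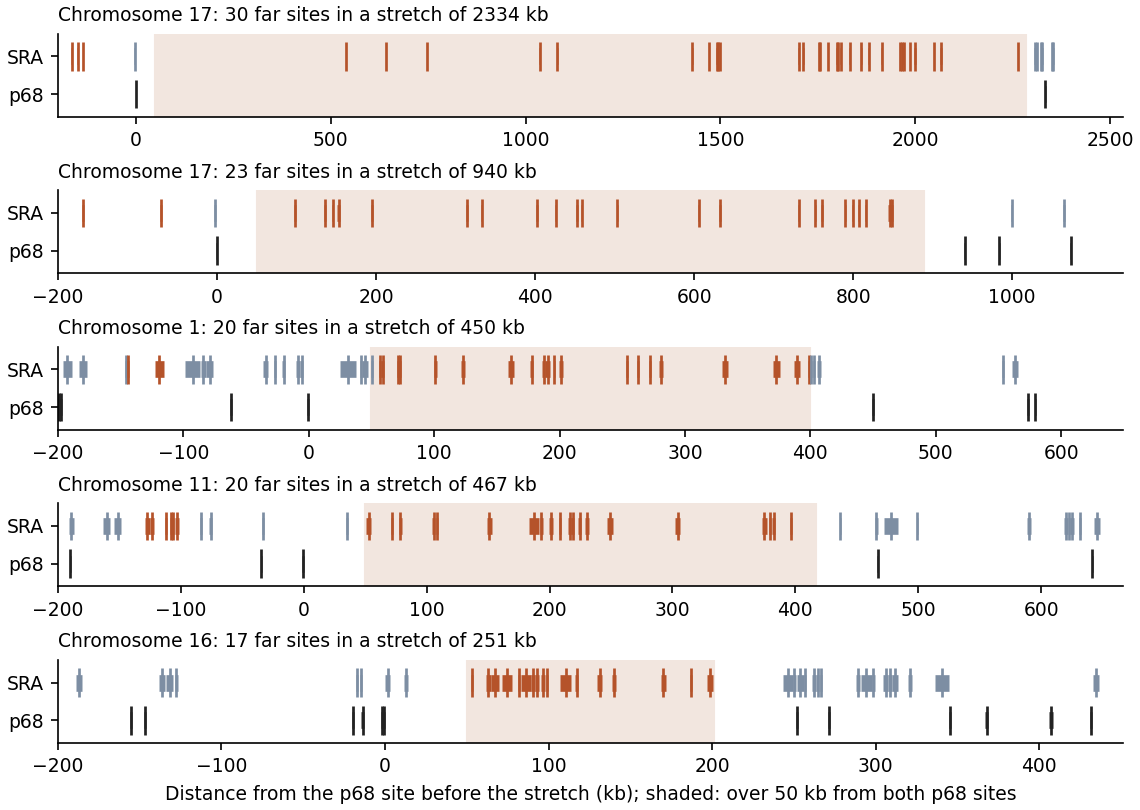
SRA sites (upper row of each panel, far in brown, remaining in blue-grey) and p68 sites (lower row, black) in the 5 stretches between neighbouring p68 sites that hold the most far sites, by distance in kb from the p68 site before the stretch, with sequence over 50 kb from both p68 sites shaded. Each site is a bar drawn to scale with a thin line at its midpoint, and each panel runs 200 kb past the stretch on either side. In the 2334 kb of chromosome 17 the first far site starts at 538 kb, and most of the others lie from 1427 kb onwards. In the 251 kb of chromosome 16 the first far site starts at 52.7 kb and the last ends at 200.4 kb.

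Distance between the lists was not symmetric. Of the 14131 p68 sites, 8242 (58.3%, 57.5 to 59.1%) had no SRA site within 50 kb, against 31.3% of SRA sites without p68. The p68 list is longer and rests on a stricter threshold, so that these shares do not compare the factors themselves.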

How the data were processed

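SRA ChIRP-seq and p68 ChIP-seq of NTERA2 cells, each with 3 biological replicates, had been deposited as 1 list of sites per assay. Single-end sequencing had given 50 bp reads, which the authors mapped to hg19 and cleared of duplicates and of alignments below mapping quality 20. They ran MACS with a p-value threshold of 1e-04 (SRA) or 1e-05 (p68), kept what the replicates shared and subtracted LacZ probe sites from the SRA list. They also screened the SRA list for homology to the probes and reported no significant number of matching sequences. The submitters' processing notes name CASAVA 1.8.2, and an aligner is not given in the sources used here. The deposited values are start and end positions, with no scores or counts, so that depth is unknown and intervals cover counting error only.

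Positions were used as deposited, and printed starts are 1-based. Gaps were measured between edges, densities from midpoints. Width and spacing (gap to the nearest other SRA site, plus 1 bp) were compared on the log2 scale by linear models with 1 intercept per chromosome and errors clustered by 1 Mb windows, in the 21 chromosomes with both kinds of sites, after the code was tested on simulated data. The sites, groups and stretches printed are the 5 with the largest gap, the 3 widest, the 3 most isolated, 2 on each side of the limit, and the 5 largest groups and fullest stretches. The next 2 by width, the sites with p68 on 1 side and the contig were added after their values were seen. The members and these rules were chosen with earlier results of these data known. Genes and sequences at the sites are not given because no hg19 annotation or genome was used here, and tables of another assembly were not used. Python 3.11.15, numpy 2.4.6, scipy 1.17.1, pandas 2.3.3, statsmodels 0.14.6 and matplotlib 3.10.9 were used.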

Additional observations from a re-analysis of the deposited data

How the results depend on the processing

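No paired analysis was possible because each assay is a single list without replicates, and for the same reason no replicate was left out. The share of far sites, 31.3%, followed the limit. It was 52.1% for gaps over 20 kb, 17.5% over 100 kb and 7.39% over 200 kb, 32.3% between midpoints, 34.6% for groups joined within 10 kb and 54.1% with the wider p68 sites alone, where fewer p68 sites are used. It was 34.9% without chromosome 1, 29.98% without chromosome 2 and 29.5% without chromosome 17, and within its interval in the other 21 alternatives. Joining within 50 kb left 1203 groups of far sites alone against 1885. The density ratio of 6.47 was 7.99 at 100 kb, 5.91 between the first and last SRA sites and 3.46 in windows with SRA sites (chosen after seeing the data). Leaving out chromosome 18 or the contig removed no site that the spacing and width models used, and so repeated their main values. With these included, spacing kept its direction and a p-value under 0.05 in all 31 alternatives. On the log2 scale it was 1.11, and it was 0.60 for the gap to another group, 0.74 with a limit of 20 kb, 1.51 with 200 kb and 0.92 to 1.21 when a chromosome was left out. The width difference of 0.037 (log2) was not stable. It reversed to -0.041 without the chromosome term. It stayed positive but missed the threshold at 0.018 (over 20 kb), 0.035 (over 100 kb), 0.0015 (over 200 kb), 61.0 bp (unlogged) and 0.0065 (sites within 500 bp joined, chosen after seeing the data). The same held without chromosomes 4 (0.036), 7 (0.029), 9 (0.035), 15 (0.035), 16 (0.020), 17 (0.035) and 21 (0.035). The cause was not tested.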
